A study of Mus musculus with 2 samples.

Results

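Chondrocytes with the highest combined levels of Cytl1, Wif1, Prelp and Gpm6b were examined within primary costal-cartilage-derived stem cells (CDSCs). Of the 11896 barcodes of the primary library, 10829 (91.0%) had at least 500 genes, at least 5000 UMIs (unique molecular identifiers, counted once per captured transcript), at most 10% mitochondrial UMIs and under 0.3% of UMIs from Col1a1. Each of these received a score, the mean over the 4 genes of the gene's share of the barcode's UMIs divided by that gene's mean share, and the top 10% by score, 1083 barcodes with 9604349 UMIs, were the members. They were set against the other 9746 scored barcodes, which held 123512321 UMIs. The series held 22694 barcodes in all. Because these 4 genes chose the members, their own levels and those of every other gene below are descriptions of cells from 1 library and carry no test. A range cut from a score is not a cell type.

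The study compared 1 library of primary CDSCs with 1 library of the same kind of cells cultured to passages 2 to 3, to learn how expansion changes them. Both came from the rib cartilage of C57BL/6J mice of the CD45.1 or the ZsGreen strain in their first week of life, digested with type II collagenase and sorted for cells without the blood cell protein CD45 and with the integrin CD51. Neither the number of animals nor which strain gave which library was stated, although ZsGreen UMIs were found in 81.7% of members and 83.8% of the other barcodes at 5000 UMIs each and in 0 of 4543 cultured barcodes. The labels name bone marrow as the tissue, whereas every member carried Col2a1, the collagen of cartilage, and Ptprc, the gene of CD45, had 9 UMIs in all members together.

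Cartilage grows from chondrocytes that secrete a matrix of collagen II and the proteoglycan aggrecan under the control of the transcription factor SOX9, and cells near the surface, in the resting reserve and close to the bone front differ in what they make. Cytl1 encodes a small secreted protein made by chondrocytes, and Wif1 a secreted inhibitor that binds Wnt ligands and keeps them from their receptors. Prelp encodes a leucine-rich repeat proteoglycan that links matrix to basement membranes, and Gpm6b a membrane protein of the proteolipid family that is best known from neurons. Wnt signals favour hypertrophy and bone formation, so their inhibitors are of interest where cartilage persists.

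The stretches just upstream of the RefSeq starts of the 4 genes (GRCm38.p6) are shown because these genes define the members. They were searched on both strands for ACAAT and ACAAAG, letters that SOX factors can bind, and a match is printed in capitals. Sequence downstream of an earlier GENCODE start was left out.
Cytl1, chr5:37735269-37735518, strand +: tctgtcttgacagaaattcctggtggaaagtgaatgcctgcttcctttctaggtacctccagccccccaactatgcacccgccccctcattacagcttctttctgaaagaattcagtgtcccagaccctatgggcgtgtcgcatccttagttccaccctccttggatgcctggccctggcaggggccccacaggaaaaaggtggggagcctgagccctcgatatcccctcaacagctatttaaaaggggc
Wif1, chr10:121033754-121033959, strand +: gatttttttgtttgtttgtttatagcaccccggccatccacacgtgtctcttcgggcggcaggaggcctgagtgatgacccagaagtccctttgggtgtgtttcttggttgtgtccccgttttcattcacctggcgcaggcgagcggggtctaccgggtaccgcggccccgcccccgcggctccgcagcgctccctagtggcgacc
Prelp, chr1:133921415-133921651, strand -: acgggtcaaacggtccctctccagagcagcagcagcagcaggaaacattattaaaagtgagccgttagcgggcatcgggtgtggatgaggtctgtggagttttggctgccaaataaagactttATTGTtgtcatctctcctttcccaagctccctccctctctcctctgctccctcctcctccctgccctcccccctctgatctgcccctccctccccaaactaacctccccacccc
Gpm6b, chrX:166238693-166238910, strand +: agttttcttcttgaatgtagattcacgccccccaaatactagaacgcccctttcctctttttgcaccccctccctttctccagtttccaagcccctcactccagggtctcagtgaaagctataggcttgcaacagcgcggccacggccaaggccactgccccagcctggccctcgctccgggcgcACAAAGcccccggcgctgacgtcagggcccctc
The Prelp stretch held 1 match to ACAAT, written as its reverse complement, the Gpm6b stretch held 1 match to ACAAAG, and the other stretches held 0. Among 32851 RefSeq stretches of 250 bases, 27.7% held ACAAT and 16.5% held ACAAAG on either strand. The matches are descriptions of these letters and show no binding.

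Members were shallower than the other barcodes, and this holds beside every comparison below. Their median was 7771 UMIs (quartiles 6527 and 10002) and 2596 genes, against 10848 UMIs (8201 and 15087) and 3065 genes in the others. The median mitochondrial share was 1.87% in members and 1.81% in the others. In the lowest decile of barcodes by UMIs 23.8% were members, and in the highest 0.923%. When every barcode was thinned to 5000 UMIs the median was 1968 genes in members and 1918 in the others, so the lower gene number went with depth. Where a 1.5-fold difference was not reached once the other barcodes were weighted to the members' depths, this is said beside the gene, except for genes under 20 CPM, for which depth matching was not run. The part of depth in the rest was not tested.

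The score formed a continuous range without a gap at the limit. The lowest member scored 2.2634 and the highest of the other barcodes 2.2629. The last member carried 14 Cytl1, 17 Wif1, 6 Prelp and 0 Gpm6b UMIs among 8547, and the first barcode outside carried 8, 6, 0 and 2 among 5984. Within 10% above the limit lay 246 members (22.7%), and within 10% below it 307 other barcodes. The median score was 2.86 in members and 0.634 in the others, 410 of which scored 0. The highest score was 7.71.

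**Figure D1:**
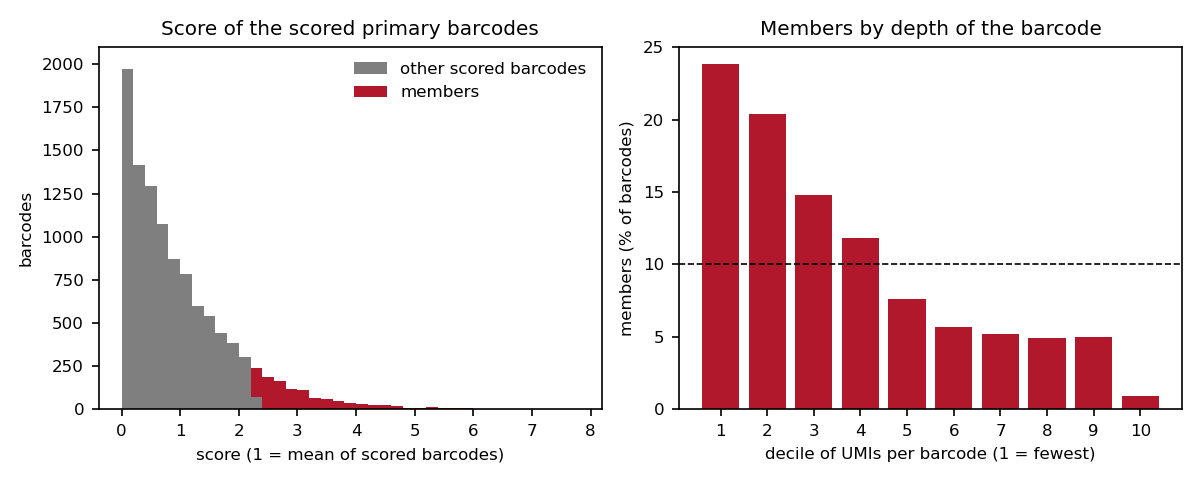
Left, number of scored primary barcodes by score, where 1 is the mean of all scored barcodes, with members in red on top of the other barcodes in grey. Right, share of barcodes that were members in each decile of barcodes by UMIs, with the overall 10% as a dashed line. The score has no gap at the limit of 2.2634, and the share of members runs from 23.8% in the shallowest decile to 0.923% in the deepest.

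All levels below are counts per 1000000 UMIs (CPM) from counts summed over the barcodes of a group, with exact 95% intervals that cover counting error only. Cytl1 stood at 2219.6 CPM in members and 568 CPM in the other barcodes. Per member it ranged from 0 to 14784 CPM with a median of 1704 CPM, against 0 to 6782 CPM and a median of 313 CPM in the others. Wif1 stood at 1194 CPM against 353 CPM, with medians per barcode of 1123 and 236 CPM. Both secreted factors were thus found in nearly all members, and the ranges of the groups overlapped because a member could score on the remaining genes.

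Prelp stood at 605 CPM in members and 194 CPM in the others, with medians of 573 and 138 CPM per barcode. Gpm6b stood at 289 CPM against 39.7 CPM, with medians of 229.9 and 0 CPM, and its fold of 7.29 was the highest of the 4. It was also the rarest, with a mean of 2.57 UMIs per member. At 5000 UMIs per barcode, the share with a UMI was 93.9% of members and 66.2% of the others for Cytl1, 95.01% and 63.3% for Wif1, 89.4% and 53.7% for Prelp, and 67.5% and 16.4% for Gpm6b. As a guide to free RNA, 17 endothelial-marked barcodes of the primary library carried 29051 CPM of Col2a1 and so held chondrocyte RNA. All 17 together held 405 CPM of Cytl1, 249 CPM of Wif1, 76.5 CPM of Prelp and 45.9 CPM of Gpm6b. The 7 of them with under 1% Col2a1, a limit chosen after their values were seen, held 1 UMI of Cytl1, 3 of Wif1, 4 of Prelp and 0 of Gpm6b among 77705, with a median of 10582 UMIs per barcode. The Cytl1 level there was 12.9 CPM (interval 0.326 to 71.7) and the Wif1 level 38.6 CPM (7.96 to 113), both intervals below the other scored barcodes. Prelp was at 51.5 CPM (14.0 to 132), also below. Because the 7 were kept for little Col2a1, low levels of chondrocyte genes in them were partly set by that choice. For Gpm6b the upper bound of 47.5 CPM, from 0 UMIs, lay above the 39.7 CPM of the other barcodes. So small a reference could not tell their summed level from background. The 289 CPM of members lay above the bound, but Gpm6b helped to choose the members. That result was therefore largely fixed by the rule and is no check against background. Barcodes were also placed in score deciles by 1 random part of their UMIs, with levels read from the rest. Gpm6b was at 13.3 to 47.1 CPM in deciles 1 to 6, below the bound. Its interval in decile 6 (42.2 to 52.4) spanned the bound. Gpm6b was at 64.3 CPM (58.4 to 70.7) in decile 7, 82.6 CPM in decile 8 and 108.5 CPM in decile 9, above the bound. The highest decile held 74.3% of members.

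The 4 genes overlapped in part. UMIs of all 4 were found in 778 members (71.8%), of 3 in 285 and of 2 in 20, and in the other barcodes all 4 were found in 1963 (20.1%). At least 3 of the genes stood above their mean share in 82.2% of members and 13.2% of the others. All 4 did so in 384 members. A single gene gave over 50% of the score in 550 members, and it was Gpm6b in 319 of them. Across the 10829 scored barcodes, at 5000 UMIs each, Spearman's coefficient was 0.37 between Cytl1 and Wif1, 0.31 between Cytl1 and Prelp, 0.27 between Wif1 and Prelp, and 0.16 to 0.20 between Gpm6b and each of the others. These are correlations over cells of 1 library with few UMIs per gene.

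Members were therefore split by the gene with the largest term of their score. This gave 505 Gpm6b-led, 274 Cytl1-led, 173 Wif1-led and 131 Prelp-led members, with medians of 7291 to 8204 UMIs. Prg4, which encodes the joint lubricant lubricin, was at 628 CPM in Wif1-led and 517 CPM in Prelp-led members, at 298 CPM in Gpm6b-led and at 167 CPM in Cytl1-led members. Clu, the secreted chaperone clusterin, was highest in Prelp-led members at 2906 CPM and lowest in Cytl1-led members at 797 CPM. Pde7b, a cyclic AMP phosphodiesterase, was at 32.8 CPM in Cytl1-led members and at 165 to 172 CPM in the rest. Acan, the aggrecan gene, was highest in Cytl1-led members, at 1673 CPM against 988 to 1285 CPM. These groups were made from the rule genes' values, so their differences are descriptions.

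**Figure D2:**
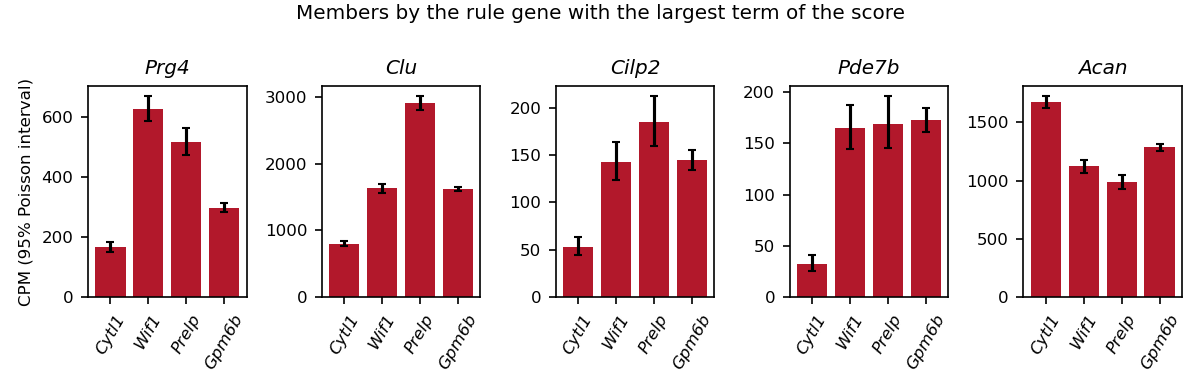
Level in CPM, from summed counts with exact 95% Poisson intervals, of 5 genes in members grouped by the rule gene with the largest term of the score. Prg4, Clu, Cilp2 and Pde7b are lowest and Acan highest in Cytl1-led members.

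Each rule gene was next left out of the score in turn, and the top 10% by the other 3 genes were chosen. The gene left out was still higher in the barcodes chosen without it. Cytl1 was then at 1271 CPM against 640.4 CPM (1.99-fold), Wif1 at 856 against 378 CPM (2.26-fold), Prelp at 460.4 against 204 CPM (2.25-fold) and Gpm6b at 118 against 53.2 CPM (2.23-fold). These barcodes shared 64.7% (without Gpm6b) to 83.8% (without Prelp) with the members. When members were chosen on a random 50% of each barcode's UMIs and levels were read from the rest, the log2 ratio was 1.79 for Cytl1, 1.48 for Wif1, 1.36 for Prelp and 2.17 for Gpm6b, against 1.97, 1.76, 1.64 and 2.87 on the same UMIs. Only 536 barcodes (49.5%) were chosen by both parts of the UMIs, and 1 part alone chose 805 of the members (74.3%). At 50% of the UMIs the identity of single members was therefore uncertain. The uncertainty with all UMIs was not measured.

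A total of 5588 genes other than the rule genes reached 20 CPM over the scored barcodes. Of these, 285 (5.10%) exceeded the others by 1.5-fold or more in members and 256 (4.58%) stood below them by as much, 541 (9.68%) in either direction. The median log2 ratio was 0.04. The shares of 5.10% and 4.58% stand beside every count of list genes below, and a single gene of a short list can reach them. A difference of at least 2-fold was reached by 62 genes in the higher and 84 in the lower direction. With the other barcodes weighted to the members' depths, 150 and 145 genes reached 1.5-fold.

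Prg4, Clu and Cilp2 were among the 15 genes with the highest ratios. Prg4 was at 339 CPM (interval 327 to 351) in members and 66.2 CPM in the others, a log2 ratio of 2.36. At 5000 UMIs it was found in 43.0% of members and 16.97% of the others, so most members had no Prg4 UMI at that depth. Clu was at 1558 CPM against 496 CPM (1.65), with medians of 754 and 87.9 CPM per barcode. Cilp2, a protein of the cartilage intermediate layer, was at 126 CPM against 41.6 CPM (1.60).

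Enzymes were also among the 15 highest. Pde7b was at 136 CPM against 38.2 CPM (log2 ratio 1.83), and Pde10a, a phosphodiesterase of cyclic AMP and cyclic GMP, at 293 CPM against 87.9 CPM (1.74). Plpp3, which breaks down lysophosphatidic acid outside the cell, was at 209 CPM against 76.7 CPM (1.44). Arhgap6, a GTPase-activating protein, was at 151 CPM against 53.8 CPM (1.49). Among secreted proteins were the carboxypeptidase-like Cpxm2 at 149 CPM against 53.5 CPM (1.48) and the BMP antagonist Nbl1 at 95.1 CPM against 36.3 CPM (1.39). Hspa1a, a stress-inducible chaperone, was at 649 CPM against 232 CPM (1.48). Its reads can be shared with the nearly identical Hspa1b. Others of the 15 highest were Specc1 (1.60), the scavenger receptor Scara3 (1.43), the sulfatase Arsi (1.40) and the thioredoxin-interacting protein Txnip (1.39). All 15 kept at least 1.5-fold in each of the 17 other settings in which single genes were recomputed, with log2 ratios of 0.81 to 1.99 at matched depth.

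The 10 lowest ratios were led by Acta2. Acta2, smooth muscle actin, was at 14.1 CPM in members and 135 CPM in the others, a log2 ratio of -3.27 and the lowest of all genes that reached 20 CPM. Tagln, which binds actin in smooth muscle, was at 7.70 CPM against 40.9 CPM (-2.41). Ly6a, the surface protein Sca-1 of many progenitor cells, was at 7.91 CPM against 49.8 CPM (-2.65) and was found at 5000 UMIs in 2.12% of members and 14.3% of the others. Tnnt3, troponin T of fast skeletal muscle, was at 73.6 CPM against 314 CPM (-2.09), and a UMI was found at 5000 UMIs in 22.4% of members and 50.3% of the others.

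Other low genes were Prune2 (29.4 against 175 CPM), Rlbp1, which binds retinaldehyde (3.85 against 22.4 CPM), the amine oxidase Aoc2 (13.1 against 66.3 CPM), the phosphatase Pxylp1, which acts on the linker of glycosaminoglycan chains (15.8 against 68.6 CPM), and Dusp2, a phosphatase of MAP kinases (6.14 against 24.96 CPM). At matched depth the log2 ratios of the 10 lowest genes lay between -2.71 and -1.65. Each of the 10 lowest genes had a UMI in 2.95% (Dusp2) to 30.3% (Tnnt3) of members without thinning.

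**Figure D3:**
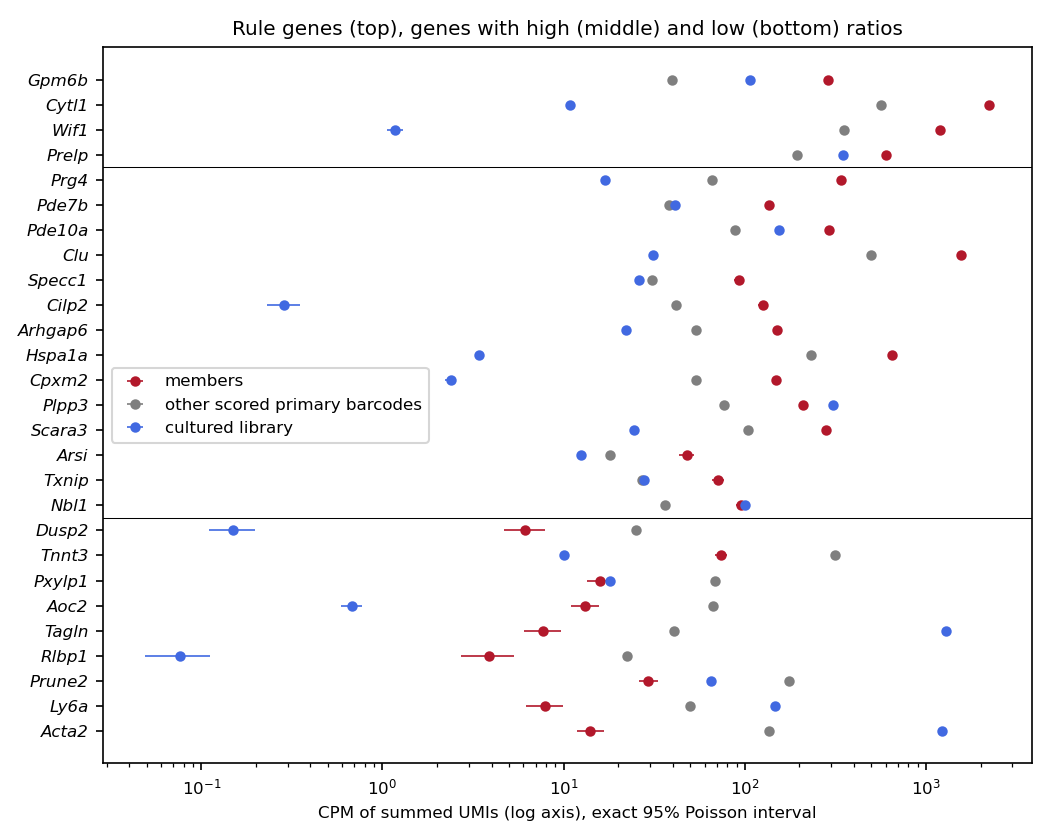
Level in CPM on a log axis of the 4 rule genes and of genes among the 15 highest and 10 lowest ratios, in members (red), other scored primary barcodes (grey) and the cultured library (blue), with exact 95% Poisson intervals. Intervals are narrower than the point for most genes, and the red and grey points do not touch in any row.

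Members carried the genes that define chondrocytes. Of 7 cartilage collagen genes, 0 reached 1.5-fold in either direction, with a median log2 ratio of -0.27. Col2a1 was at 38394 CPM in members and 55093 CPM in the others (-0.52). Per barcode it ranged from 4153 to 94024 CPM with a median of 35513 CPM in members, and the median of the others was 53853 CPM. All 7 ratios were below 0, from -0.08 for Col11a1 to -0.56 for Col27a1. Sox9, the master regulator of chondrocytes, was at 952 CPM against 1356 CPM (-0.51). Its partners Sox5 and Sox6 had log2 ratios of 0.22 and 0.16. Of 13 chondrogenic transcription factors, 2 were at least 1.5-fold higher, Zfp521 (297 against 159 CPM) and Nfib (176 against 106 CPM), and 0 lower, with a median of 0.20.

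The cartilage matrix genes outside the collagens went both ways. Of 18 proteoglycan and accessory matrix genes, 3 were at least 1.5-fold higher and 7 lower, with a median log2 ratio of -0.38 beside 0.04 over all genes. The higher genes were Cilp2, Mgp and Comp. Mgp, an inhibitor of calcification, was at 12531 CPM against 7558 CPM (0.73), and Comp, which organises collagen fibrils, at 4289 CPM against 2845 CPM (0.59), but at matched depth these ratios were 0.45 and 0.41 and below 1.5-fold. The lower genes were led by Scrg1 at 249 CPM against 696 CPM (-1.48), Pcolce2, an enhancer of procollagen processing, at 131 CPM against 279 CPM (-1.09), Fbln7 at 29.5 against 60.5 CPM (-1.04) and Crispld1 at 213 against 401 CPM (-0.91). Acan, at 1324 CPM against 2026 CPM (-0.61), Ucma (-0.59) and Mia (-0.67) were lower too, but no longer by 1.5-fold at matched depth (-0.39, -0.47 and -0.49), where 1 gene of the list was higher and 4 lower.

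Prelp belongs to the small leucine-rich proteoglycans, and 11 others of that family reached 20 CPM. Ecm2 (289 against 127 CPM, log2 ratio 1.18) and Fmod, which regulates collagen fibril thickness (2712 against 1708 CPM, 0.67), were at least 1.5-fold higher. Epyc, a proteoglycan of growing cartilage (489 against 1092 CPM, -1.16), and Chadl (365 against 597 CPM, -0.71) were lower. Fmod and Chadl lay below 1.5-fold at matched depth (0.54 and -0.55). Bgn, Dcn and Lum had log2 ratios of 0.002, 0.090 and 0.090. The family median was 0.09, with genes on both sides.

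**Figure D4:**
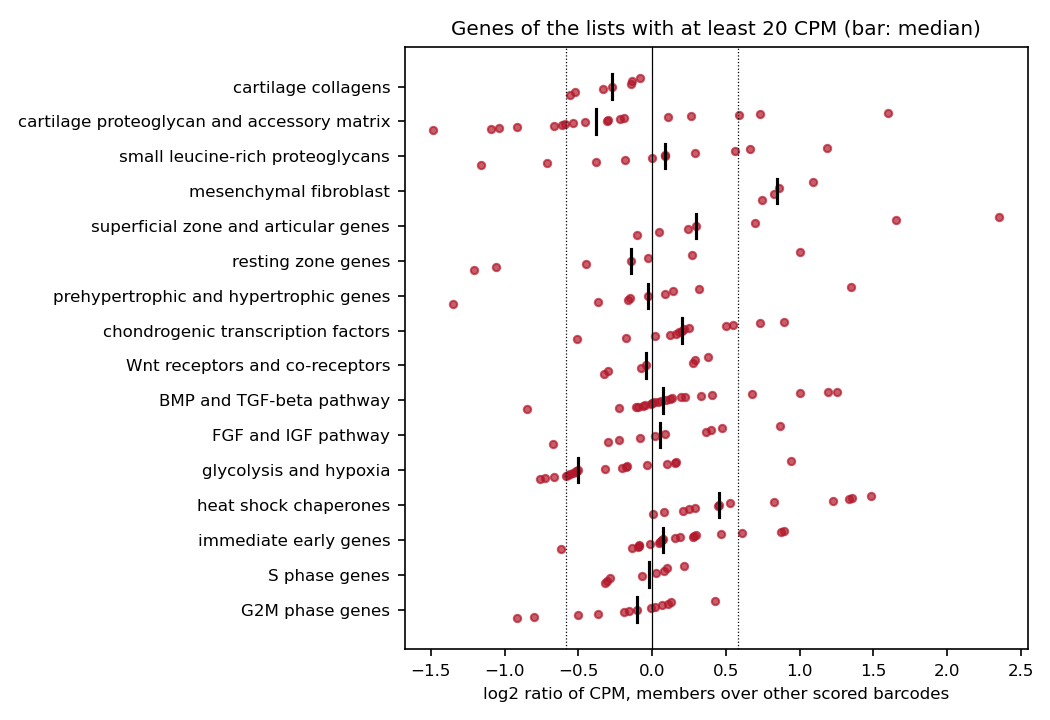
Log2 ratio of CPM, members over other scored barcodes, for each gene of a list that reached 20 CPM (points) with the list median (bar) and the 1.5-fold limits (dotted lines). All 7 cartilage collagens lie below 0, all 13 heat shock chaperones lie at or above 0, and proteoglycan and accessory matrix genes lie on both sides.

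Wnt pathway genes were described because Wif1 is a Wnt inhibitor. Besides Wif1, 2 secreted Wnt inhibitors of the list reached 20 CPM. Frzb, which traps Wnt ligands in cartilage, was at 52.7 CPM in members and 145 CPM in the others (log2 ratio -1.46), and Sfrp1 at 279 CPM against 222 CPM (0.33), with a median of -0.57. The only ligand or R-spondin that reached 20 CPM was Rspo3, which strengthens Wnt signalling, at 29.7 CPM against 81.9 CPM (-1.47). Of 7 Wnt receptors and co-receptors, 0 reached 1.5-fold, with a median of -0.04. Of 5 canonical target genes (median 0.28), Nkd1, a feedback inhibitor, was higher (53.0 against 26.3 CPM, 1.01) and Myc lower (71.3 against 148 CPM, -1.05). Among inhibitors under 20 CPM, singled out after their values were seen, Dkk3 was at 31.1 CPM against 9.59 CPM (1.70) and Notum, an enzyme that inactivates Wnt ligands, at 20.6 CPM against 8.52 CPM (1.28). The directions of the remaining inhibitors under 20 CPM are not given here. The list of 15 inhibitors, without Wif1, summed to 433 CPM in members and 424 CPM in the others.

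Of 22 BMP and TGF-beta pathway genes, 4 were at least 1.5-fold higher and 1 lower, with a median of 0.08. Over all genes 5.10% were higher and 4.58% lower. The ligands Bmp2 (240.0 against 101 CPM, log2 ratio 1.253), Tgfb3 (49.98 against 21.8 CPM, 1.19) and Bmp5 (118 against 73.6 CPM, 0.68) and the co-receptor Tgfbr3 (259 against 129 CPM, 1.00) were higher, and Gdf10 (13.3 against 23.9 CPM, -0.85) was lower. Bmp5 and Gdf10 lay below 1.5-fold at matched depth (0.50 and -0.44). The receptors Bmpr1a, Bmpr1b, Bmpr2, Tgfbr1 and Tgfbr2 had log2 ratios between -0.10 and 0.13, and the targets Id1, Id2 and Id3 between -0.05 and 0.20. The ligands Bmp3 (24.7 against 5.66 CPM, 2.12) and Bmp4 (41.9 against 16.1 CPM, 1.38) did not reach 20 CPM over all scored barcodes and were singled out after their values were seen. The list held 35 genes, and the directions of the remaining genes under 20 CPM are not given here. Of 10 FGF and IGF pathway genes (median 0.05), Igfbp7 was higher (1304 against 716 CPM, 0.86) and Fgf2 lower (38.0 against 60.4 CPM, -0.67), neither by 1.5-fold at matched depth (0.58 and -0.39).

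The counts for cartilage zones stand beside 5.10% higher and 4.58% lower over all genes. Among genes of cartilage zones, 3 of 7 superficial and articular genes were at least 1.5-fold higher and 0 lower, with a median of 0.30. These were Prg4, Clu and the transcription factor Erg (252 against 156 CPM, 0.70). Fn1, a matrix protein in the same list, was at 3407 CPM against 3291 CPM (0.05). Of 7 resting zone genes (median -0.14), Apoe was higher (53.0 against 26.4 CPM, 1.00), and Grem1, a BMP antagonist (15.2 against 31.7 CPM, -1.06; at matched depth -0.51), and Pdzrn4 (10.8 against 24.9 CPM, -1.20) were lower. Of 9 prehypertrophic and hypertrophic genes, Spp1, osteopontin, was higher (119 against 46.7 CPM, 1.35) and Smpd3, which is needed for matrix mineralisation, lower (21.6 against 54.9 CPM, -1.35), with a median of -0.03. Col10a1 and Ibsp, which define hypertrophic cartilage and bone matrix, had 2 UMIs each in all members, and Ihh had 20.

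Stress, metabolism and the cell cycle were examined by lists, with 5.10% of all genes higher and 4.58% lower as the reference. Of 13 heat shock chaperones, 5 were at least 1.5-fold higher and 0 lower, with a median of 0.45. They were Hspa1a, Hspa1b (261 against 102 CPM), Hspb1 (365 against 145 CPM), Hsph1 (356 against 152 CPM) and Dnaja1 (478 against 269 CPM), the last at 0.58 and below 1.5-fold at matched depth. Before thinning, a UMI of Hspb1 was found in 37.3% of members and 35.2% of the others, and of Dnaja1 in 82.4% and 83.1%. For Hspa1a, Hspa1b and Hsph1 the shares were 57.1% and 40.5%, 51.9% and 32.3%, and 56.0% and 44.2%. Without the top 10% of barcodes by Hspa1a, Hspa1b, Hsph1 and Dnajb1, 5 were still higher, with a median of 0.30. Of 20 immediate early genes (median 0.07), Klf2 (2889 against 1556 CPM, 0.89), Klf6 (485 against 264 CPM, 0.88) and Jun (2741 against 1799 CPM, 0.61) were higher and Fosl1 (72.2 against 110.4 CPM, -0.61) was lower, and at matched depth Klf2 (0.47) and Jun (0.34) lay below 1.5-fold. Fos, at 5667 CPM against 5398 CPM, differed by 0.07.

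Of 19 glycolysis and hypoxia genes, 1 was at least 1.5-fold higher and 3 lower, with a median of -0.50. Over all genes 5.10% were higher and 4.58% lower. Ldha, which makes lactate, was at 271 CPM against 459.7 CPM (-0.76), Pgk1 at 111 against 182 CPM (-0.72) and Pgam1 at 94.6 against 150.2 CPM (-0.67), and Ndrg1 at 116 against 60.7 CPM (0.94) was the exception. At matched depth the 3 lower genes lay at -0.52 to -0.56 and the list median at -0.34. Of 8 S phase genes 0 reached 1.5-fold, with a median of -0.02, and of 13 G2M genes 2 were lower, Cks2 (15.3 against 26.7 CPM) and Rangap1 (15.2 against 28.6 CPM), with a median of -0.10. Cks2 (-0.57 at matched depth) lay then below 1.5-fold. At 5000 UMIs per barcode, 31.5% of members (interval 28.7% to 34.3%) and 31.8% of the others (30.9% to 32.7%) had at least 5 UMIs of the G2M list. That list summed to 775 CPM in members and 980 CPM in the others, and Top2a, Cenpf, Mki67 and Cdk1 to 12.5 and 47.5 CPM. The share with 5 UMIs therefore does not count dividing cells. Mitotic genes under 20 CPM, singled out after their values were seen, were lower in members. Top2a was at 2.08 CPM against 12.1 CPM, Mki67 at 2.603 against 10.1 CPM and Cenpf at 1.98 against 9.59 CPM, each with a UMI in under 2% of members. No UMI of these genes or of Cdk1 was found in 93.4% of members and 90.6% of the deeper other barcodes. Barcodes in the top 10% by these genes and Cdk1 had a median of 13187 UMIs. Depth matching was not run for these genes.

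The levels differed along the whole score, not only at the limit. Barcodes were placed in deciles by a score from 1 random part of their UMIs, and levels were read from the other part. From the lowest to the highest decile, Cytl1 went from 54.5 to 2024 CPM, Clu from 90.6 to 1516 CPM, Bmp2 from 37.0 to 231 CPM and Mgp from 2993 to 12543 CPM. Over the same deciles Acta2 went from 329.8 to 15.9 CPM, Prune2 from 337 to 32.1 CPM, Ldha from 740.2 to 269.8 CPM, Acan from 2571.5 to 1318 CPM and Col2a1 from 65733 to 39332 CPM. Fn1 lay between 3029 and 3569 CPM in all deciles. Gpm6b was at 108.5 CPM in decile 9 and 208 CPM in the highest, the largest ratio between these deciles among the 4 rule genes.

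**Figure D5:**
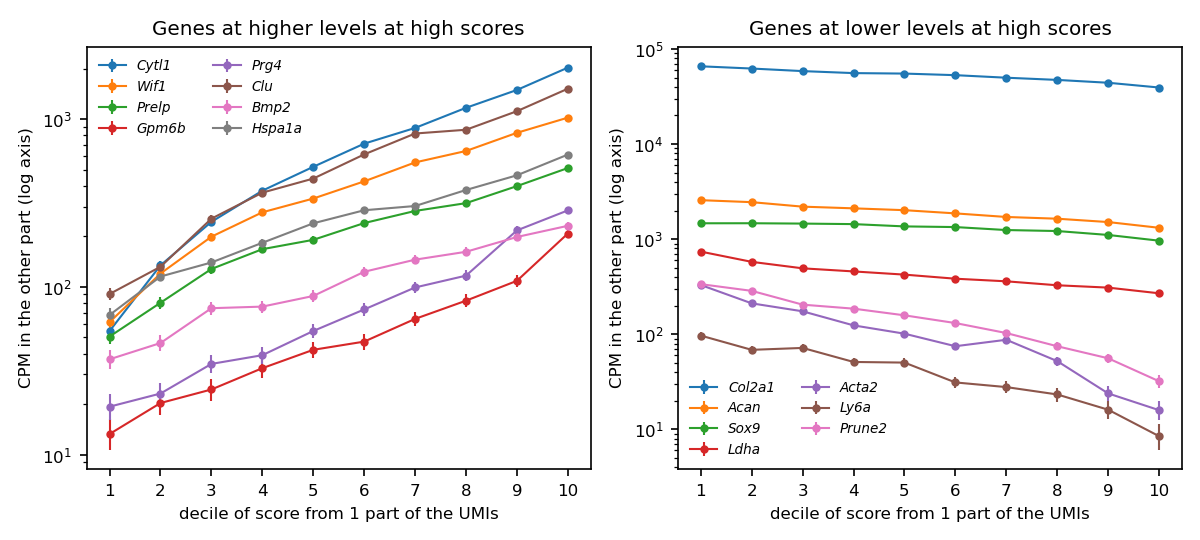
Level in CPM on a log axis, read from the part of the UMIs not used for scoring, in deciles of the scored barcodes by a score from the other part (1 lowest, 10 highest), with exact 95% Poisson intervals. Cytl1, Wif1, Prelp, Gpm6b, Prg4, Clu, Bmp2 and Hspa1a are higher and Col2a1, Acan, Sox9, Ldha, Acta2, Ly6a and Prune2 lower in the highest than in the lowest decile, and Cytl1 spans 54.5 to 2024 CPM.

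Members shared cells with other score-defined groups of the library. Of the members, 31.0% (interval 28.3% to 33.9%) were also in the top 10% by Prg4, Clu and Cilp2, against 7.66% of the other barcodes, and 22.9% (20.4% to 25.5%) were in the top 10% by the 4 heat shock genes, against 8.57%. In the top 10% by Acta2, Grem1 and Eln were 2.68% (1.80% to 3.82%) of members and 10.8% of the others. For a score of Runx3, Wnt5b and Ptch1 the shares were 7.39% and 10.3%, for Trf, Fam43a, Klf5 and Foxc2 9.97% and 10.0%, and for Top2a, Cenpf, Mki67 and Cdk1 7.66% and 10.3%. Barcodes in the top 10% by the Prg4 score had a median of 7722 UMIs and those by the heat shock score 7963, close to that of members. Those by the Acta2, Runx3, Trf and Top2a scores had medians of 13547, 10439, 9787 and 13187 UMIs. The shares were not matched on depth, and the part of depth in them was not tested. With the top 10% by the Prg4 score left out, 747 members remained, with 224 genes at least 1.5-fold higher and 251 lower. The 15 highest and 10 lowest genes all still reached 1.5-fold there.

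The genes of these scores were also read in the summed counts. All 3 genes of the Prg4 group were higher in members (median 1.65) and all 3 of the Acta2 group lower (median -1.06), where only Acta2 kept 1.5-fold at matched depth. Of the 4 heat shock group genes 3 were higher (median 1.29). In the Trf group, Trf was higher (249.8 against 155 CPM, 0.69), although a UMI was found in 44.3% of members and 50.1% of the others and the log2 ratio was -0.036 with a score without Cytl1. Fam43a was lower (24.5 against 61.0 CPM, -1.32). Only Ptch1 of the Runx3 group and none of the 4 G2M group genes reached 20 CPM, the former with a ratio of -0.03.

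Markers of other cell types were examined in the members. All 4 mesenchymal fibroblast genes that reached 20 CPM were at least 1.5-fold higher, with a median log2 ratio of 0.85. Col3a1 was at 117 CPM against 54.6 CPM (1.09), Col1a2 at 898 against 494 CPM (0.86), Prrx1 at 75.9 against 42.7 CPM (0.83) and Col5a1 at 74.8 against 44.6 CPM (0.74). The summed level of the 10 genes had a median of 909 CPM per member and 522 CPM per other barcode, and 1.85% of members were at 0. Col1a1, limited by the selection of barcodes, was at 30.1 CPM against 18.1 CPM. The part of fibroblast RNA in the members' differences was not tested. Of 2 tenocyte genes, Fmod was higher, with a median of 0.36, but not by 1.5-fold at matched depth.

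Of 3 smooth muscle and pericyte genes, Acta2 and Tagln were lower, with a median of -2.41, and Cspg4, a proteoglycan of pericytes and other cells, was at 174 CPM against 161 CPM (0.11). Rgs5 had 1 and Notch3 had 2 UMIs in all members. The 8 endothelial, 8 haematopoietic, 6 mast cell and 6 erythroid genes had no gene at 20 CPM, and a median of 0 CPM per member in each list. None of the endothelial genes was found in 95.6% of members, none of the haematopoietic genes in 92.2%, and the mast cell genes Cma1, Mcpt4 and Cpa3 had 3, 1 and 1 UMIs in all members. Of the skeletal muscle list only Tnnt3 reached 20 CPM. S100b was the single gene of the Schwann and glia list at 20 CPM (161 against 187 CPM, -0.21), and its defining gene Sox10 had 5 UMIs in members. Gpm6a, the closest relative of Gpm6b, had 0 UMIs. Of the osteoblast list only Runx2 reached 20 CPM (117 against 106 CPM, 0.14), and Sp7 and Bglap had 1 UMI each.

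A further list held markers picked by the study from these same libraries, so it is not independent evidence of a direction. Of its 13 genes, 7 reached 20 CPM, and 2 were at least 1.5-fold higher in members and 3 lower, with a median of -0.51. Spp1 and Prrx1 were the higher ones and Acta2, Ly6a and Acan the lower ones, Acan not at matched depth. Sox9 and Emb lay between. Cxcl12 had 12 UMIs in all members, Kitl 30, Vcam1 4 and Cdh5 0.

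The cultured library served as a further reference, with 4543 barcodes that passed the same limits on genes, UMIs and mitochondrial share and a median of 66411 UMIs. Cytl1 was there at 10.9 CPM and Wif1 at 1.17 CPM, below the level of both primary groups. Prelp, at 348 CPM, and Gpm6b, at 106 CPM, lay between the members and the other primary barcodes. At 5000 UMIs, 3.04% of cultured barcodes had a UMI of Cytl1, 0.506% of Wif1, 63.6% of Prelp and 33.5% of Gpm6b. Prg4 was at 16.9 CPM, Clu at 31.3 CPM and Cilp2 at 0.286 CPM. Spp1, at 6574 CPM, Grem1, at 1088 CPM, and Acta2, at 1226 CPM, were above both primary groups. Levels in culture come from 1 library of another preparation, so culture, library and donor strain cannot be told apart. ZsGreen UMIs were found in 0 of 4543 cultured barcodes at 5000 UMIs each, unlike in the primary library. A barcode name of 3 members also occurred in the cultured library, among 32 names that the libraries shared.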

How the data were processed

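Single-cell RNA libraries of primary and cultured CDSCs had been made with a 10x Genomics 3' v3.1 kit. The authors counted UMIs per gene and barcode with Cell Ranger 7.0.0 on mm10/GRCm38 (the submitters' processing notes also name GRCm39, and the annotation release was not stated), and the deposited values were raw counts, with totals of 137359014 (primary) and 336427977 (cultured). Barcodes were filtered and scored as given above. Counts were summed over barcodes, scaled to CPM, and compared as log2 ratios with counts under 3 raised to 3. Poisson and conditional intervals at 95% cover counting error only. Clopper-Pearson intervals of shares of barcodes treat the barcodes of 1 library as independent and do not cover animals or preparations. With 1 library per group no test was possible.

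The genes named were the rule genes, the 15 highest and 10 lowest by log2 ratio without mitochondrial and ribosomal genes, and list genes, each with at least 20 CPM over scored barcodes. Some of these genes are not reported here. Members and lists were chosen with earlier results of these data known. Scrublet called 0 doublets by its automatic threshold and had not worked, so none were removed. The barcodes with the highest Scrublet scores, 0.8% per 1000 deposited barcodes, were left out as an alternative. For depth matching, other barcodes were weighted to the members' distribution over deciles of UMIs. Analyses used Python 3.11.15, numpy 2.4.6, scipy 1.17.1 and scanpy 1.11.5 and were tested on simulated data. Coordinates came from GENCODE M21 and sequences from RefSeq, both GRCm38.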

Additional observations from a re-analysis of the deposited data

How the results depend on the processing

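The counts of 285 higher and 256 lower genes stayed within 1.5 times the reported value under most settings, among them equal weight per barcode, thinning to 5000 UMIs, the split of UMIs and scores without 1 rule gene. They were 150 and 145 with other barcodes matched on depth, 683 and 517 with genes from 5 CPM, 141 and 148 with genes from 50 CPM, and 62 and 84 at 2-fold. The number of members was 541 at the top 5% and 2166 at the top 20%. Presumed doublets made up 3.79% of members and 10.8% of the others. When they were left out and the top 10% chosen again, 973 barcodes were chosen, all of them members. Only 41 members were presumed doublets and the same rule genes gave the score. This overlap was therefore largely fixed by the rule and is no check of the members. Of 78 named genes past 1.5-fold, 58 stayed past it at matched depth, and all kept their direction in each of the 17 settings except Trf, whose log2 ratio was -0.036 with a score without Cytl1. The cause of these shifts was not tested. The settings that left out barcodes high in the Prg4, heat shock or Acta2 scores were chosen after seeing the data. No paired analysis was possible because each group was 1 library. Differences between animals or preparations cannot be estimated, and members near the limit are set partly by counting error.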
